A study of Mus musculus with 119 samples.

Results

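The expression of 10 subpallial and striatal transcription factors, Foxp1, Foxp2, Six3, Isl1, Ebf1, Meis2, Zfp503, Bcl11b, Dlx5 and Dlx6, was followed in 119 mouse brain libraries. These 10 genes are a named list of the 55291 gene symbols in the deposited count tables. They were compared by brain region and by treatment with Δ-9-tetrahydrocannabinol (THC), the main psychoactive compound of cannabis. GABAergic neurons of the striatum and of much of the amygdala arise in the embryonic subpallium, where Dlx homeobox genes set the GABAergic fate and further factors sort newborn cells into direct-pathway and indirect-pathway medium spiny neurons (MSNs) or interneurons. Several of these factors stay on in the adult neuron and hold its identity. Cortical projection neurons arise in the pallium, and most midbrain dopaminergic neurons in the floor plate, outside this programme.

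Female and male mice received 10 mg/kg THC or vehicle by daily injection in early adolescence and were sampled after a drug-free interval with behavioral testing. The punches were of the ventral tegmental area (VTA), the amygdala (Amy), the nucleus accumbens (NAc), the dorsal medial striatum (DMS) and the prefrontal cortex (PFC). Each of the 20 groups of region, sex and treatment held 6 libraries, except male VTA vehicle with 5. The labels give C57BL/6J mice aged 11 weeks and call the DMS punch dorsolateral striatum, whereas the study's methods name C57BL/6NCrl, the dorsal medial part and collection in a later week. The vehicle held ethanol, tween and saline, and all groups went through the same behavioral tests, so no group was left unhandled. A punch is a mixture of cell types, and all regions of a mouse were taken, but the labels do not say which libraries share a mouse.

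To the nearest 100, the total count per library had a median of 22092600 and ran from 3091000 in the male VTA vehicle library FTL_371 to 77042100. The summed CPM (counts scaled to a common library size) of 13 MSN markers had a median of 13929 in DMS, 6369 in NAc, 1556 in Amy, 591 in VTA and 583 in PFC libraries, and the dopaminergic list was highest in the VTA with 3949. Library FTL_344, labelled female Amy THC, and library FTL_356, labelled male Amy THC, carried Xist and Y-linked counts of the other sex, and the fits of Amy treatment and sex were repeated without them. Both are labelled THC, so an exchange of the pair would move them between the sexes, not between treatments, and it was not tested. Foxp1 was at 37.0 CPM in FTL_344 and 29.0 in FTL_356, and Bcl11b at 152 and 139. The female Amy vehicle library FTL_338 matched its label but had Xist at 237 CPM, against 494 to 555 in the rest of its group. It held the lowest Foxp1 (20.3 CPM) and Bcl11b (83.4 CPM) levels of that group. A few libraries stood apart in the members and in the MSN markers alike. The male Amy THC library FTL_352 held the highest Amy level of 9 of the 10 members and an MSN sum of 4286, against 904 to 2819 in the other Amy libraries. The female PFC vehicle library FTL_264 held the highest PFC level of 6 members, with an MSN sum of 1132 against 529 to 716. The male NAc vehicle library FTL_325 held the lowest NAc level of 7 members, with an MSN sum of 4356 against 4793 to 8931. The male DMS vehicle library FTL_301 held the lowest DMS level of Foxp1, Foxp2, Six3 and Bcl11b, with an MSN sum of 9637 against 11893 to 15935.

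Sequences upstream of 4 genes are shown because the results turn on these genes: Foxp1 was called between the female Amy groups when these were fitted alone, Zfp503 was higher in every male NAc THC library than in every vehicle library, and the divergent neighbour Six3os1 followed Six3 across regions more closely than any other gene. Each window is the 250 bases before a RefSeq start site in GRCm38.p6, written 5′ to 3′ on the strand of the gene, and 7 of the 10 members had one. Windows of which more than 30 bases lie in annotated exons are not shown. Capitals mark the homeodomain core TAATTA and the Meis motif TGACAG, searched on both strands, so CTGTCA marks the latter on the other strand.

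Foxp1 at chr6:99266516-99266765, minus strand: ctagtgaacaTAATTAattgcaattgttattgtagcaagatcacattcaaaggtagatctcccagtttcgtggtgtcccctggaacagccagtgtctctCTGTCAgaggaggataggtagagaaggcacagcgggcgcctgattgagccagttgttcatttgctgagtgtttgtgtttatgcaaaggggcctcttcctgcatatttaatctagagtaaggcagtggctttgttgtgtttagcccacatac
Foxp1 at chr6:99028299-99028548, minus strand: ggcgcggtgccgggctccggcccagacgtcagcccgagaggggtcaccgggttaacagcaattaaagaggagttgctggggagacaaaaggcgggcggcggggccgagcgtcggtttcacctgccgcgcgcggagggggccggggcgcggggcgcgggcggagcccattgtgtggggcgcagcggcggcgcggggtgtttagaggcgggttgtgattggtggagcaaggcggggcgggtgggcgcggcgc
Zfp503 at chr14:21989602-21989851, minus strand: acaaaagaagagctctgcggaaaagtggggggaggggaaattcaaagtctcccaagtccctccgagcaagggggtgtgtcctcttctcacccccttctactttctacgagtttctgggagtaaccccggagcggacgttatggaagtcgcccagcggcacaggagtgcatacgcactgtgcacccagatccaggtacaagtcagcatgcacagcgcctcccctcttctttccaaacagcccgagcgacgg
Six3 at chr17:85620584-85620833, plus strand: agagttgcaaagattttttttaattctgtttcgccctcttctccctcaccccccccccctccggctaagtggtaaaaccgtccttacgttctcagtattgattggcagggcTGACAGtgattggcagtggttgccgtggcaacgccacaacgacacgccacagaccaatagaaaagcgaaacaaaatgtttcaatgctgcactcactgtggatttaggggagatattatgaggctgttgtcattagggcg
Six3os1 at chr17:85618397-85618646, minus strand: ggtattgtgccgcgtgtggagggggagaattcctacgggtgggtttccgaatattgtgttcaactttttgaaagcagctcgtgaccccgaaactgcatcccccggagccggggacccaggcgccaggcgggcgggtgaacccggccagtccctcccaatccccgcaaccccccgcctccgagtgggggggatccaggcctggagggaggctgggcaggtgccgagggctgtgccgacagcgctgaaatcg

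The 2 Foxp1 windows differed in base composition, with 3 CpG dinucleotides in the upstream one and 34 in the downstream one, against a median of 6 over all 32851 windows of this length. The upstream Foxp1 window held 1 TAATTA and 1 TGACAG, the Six3 window held 1 TGACAG, and the other 3 windows held neither. TAATTA occurred in 4.84% and TGACAG in 15.9% of all windows. The forkhead motif TGTTTAC, present in 3.17% of windows, was in none of the 5 windows shown. A match is a description of the letters only.

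In the annotation used here (GENCODE M21, GRCm38) the members lie on 7 chromosomes. Foxp1 (chr6:98925338-99522721, minus strand), Foxp2 (chr6:14901349-15441977, plus strand), Dlx5 (chr6:6877805-6882085, minus strand) and Dlx6 (chr6:6863334-6868568, plus strand) share chromosome 6. Six3 is at chr17:85613608-85629302 on the plus strand, Isl1 at chr13:116298281-116309689 on the minus strand, Ebf1 at chr11:44617317-45008091 on the plus strand and Meis2 at chr2:115863064-116065839 on the minus strand. Zfp503 is at chr14:21983959-21989601 and Bcl11b at chr12:107910403-108003602, both on the minus strand. Counts cover whole gene models, exons with UTRs included.

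To see where the factors are found in the adult brain, their levels were compared across regions. All 10 members were higher in the DMS than in the PFC, and all but Ebf1 were higher in the NAc than in the Amy or the VTA. The 10 genes did not share 1 regional pattern: Foxp1, Ebf1, Meis2, Bcl11b and Dlx6 had their highest median in the DMS, and Foxp2, Six3, Isl1, Zfp503 and Dlx5 in the NAc. Levels are CPM scaled by TMM (trimmed mean of M-values) over all 119 libraries, and PFC and DMS libraries came in a separate table from the other 3 regions, so levels across tables are described without a test. In bulk tissue, fewer cells of a type and less RNA per cell cannot be told apart.

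**Figure D1:**
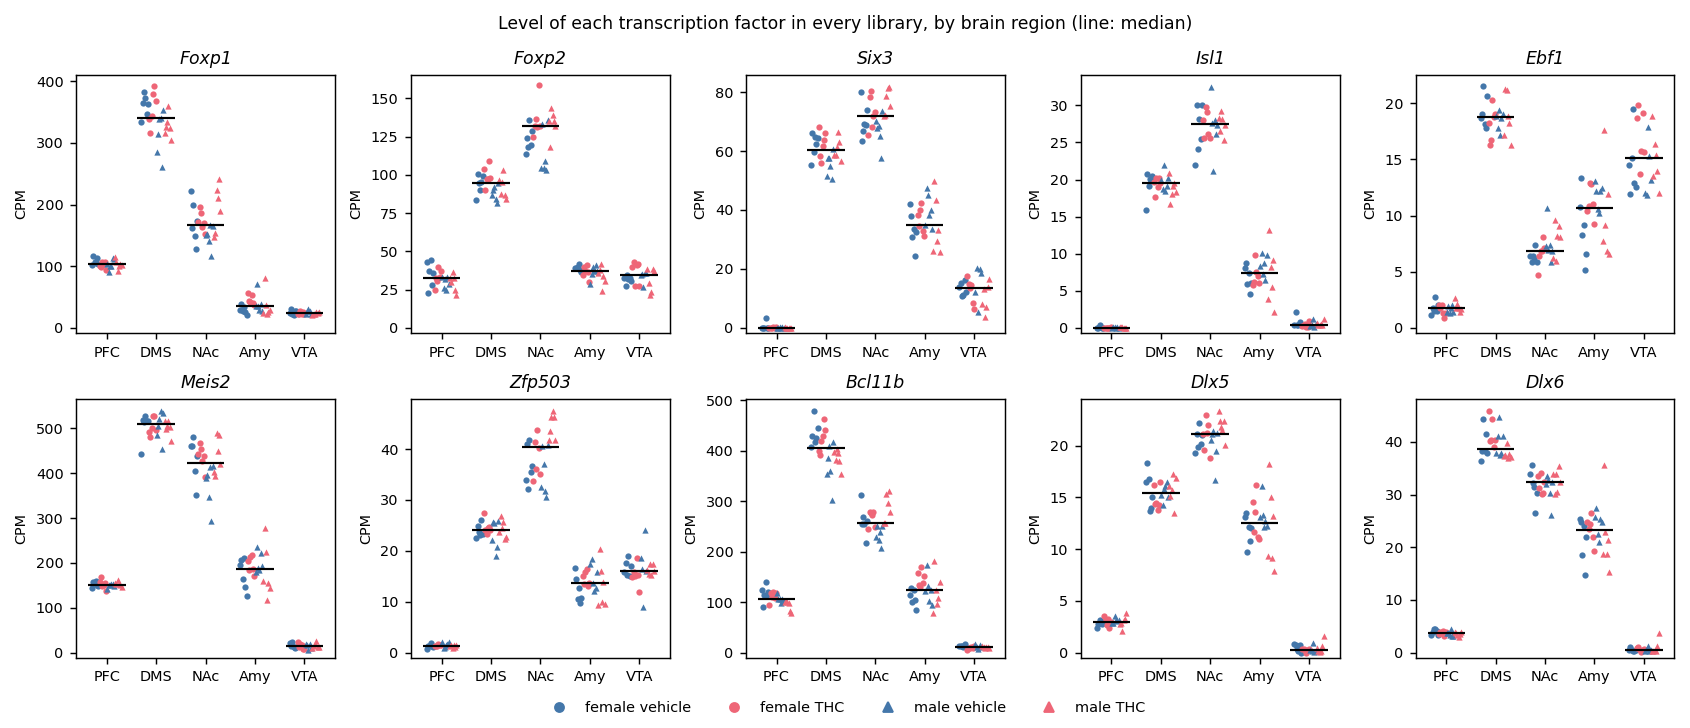
CPM (TMM-scaled, y axis, from 0) of each member in every library, by brain region (x axis), with colour for treatment, symbol for sex and a line at the region's median. The DMS and NAc libraries hold the highest levels of most members, Ebf1 is higher in the VTA (median 15.2) than in the NAc (6.85), and Isl1, Dlx5 and Dlx6 are close to 0 in the VTA.

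Foxp1 and Foxp2 encode forkhead repressors of MSNs that can form dimers with each other. The Foxp1 level had a median of 340 CPM in the DMS (261.4 to 392), 166 in the NAc (117 to 241), 104 in the PFC (91.1 to 116), 35.8 in the Amy (20.3 to 80.4) and 24.0 in the VTA (21.2 to 30.0). The DMS, NAc, PFC and Amy ranges of Foxp1 did not overlap in this order, while those of the Amy and the VTA did. The Foxp2 level was instead highest in the NAc, with a median of 132 CPM (103 to 159), followed by the DMS with 94.7 (81.7 to 109). Foxp2 ranges overlapped between the NAc and the DMS, and again among the Amy (37.4), the VTA (34.8) and the PFC (32.6).

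Six3, a homeobox gene needed for indirect-pathway MSNs, had a median of 71.9 CPM in the NAc (57.6 to 81.9), 60.2 in the DMS (50.4 to 68.3), 34.7 in the Amy (24.5 to 49.98) and 13.6 in the VTA (3.62 to 20.3). In the PFC it had no count in 10 of 24 libraries and 118 counts in all, and its highest PFC level was 3.48 CPM in FTL_264. Isl1, a LIM homeodomain factor of direct-pathway MSNs and of cholinergic interneurons, had a median of 27.5 CPM in the NAc (21.1 to 32.5), 19.5 in the DMS (16.0 to 22.0), 7.34 in the Amy (2.08 to 13.2) and 0.426 in the VTA (0.0515 to 2.12). In the PFC, Isl1 had no count in 13 of 24 libraries and 23 counts in all. For both genes the NAc and DMS ranges overlapped and lay apart from the Amy.

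Ebf1, a helix-loop-helix factor of direct-pathway differentiation, had a different order from the other members. Its level had a median of 18.8 CPM in the DMS (16.3 to 21.5), 15.2 in the VTA (11.8 to 19.8), 10.7 in the Amy (5.18 to 17.6), 6.85 in the NAc (4.66 to 10.7) and 1.73 in the PFC (0.849 to 2.704). Neighbours in this order overlapped except the NAc and the PFC. Zfp503 (Nolz1), a zinc finger gene of the developing striatum, was also present in the VTA at 16.1 CPM (8.95 to 24.0), beside 40.4 in the NAc (30.6 to 47.4), 24.1 in the DMS (19.0 to 27.5), 13.7 in the Amy (9.42 to 20.4) and 1.38 in the PFC (0.753 to 2.09). The NAc lay apart from the DMS for Zfp503, and the VTA overlapped both the DMS and the Amy.

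Meis2, a TALE homeodomain partner of Pbx factors, and Bcl11b (Ctip2), a zinc finger factor of MSNs and of deep-layer cortical neurons, shared 1 order of regions, which Dlx6 also followed. The Meis2 level had a median of 510 CPM in the DMS (443 to 538), 424 in the NAc (293.04 to 491), 187 in the Amy (117 to 277.6), 151 in the PFC (137 to 169) and 14.1 in the VTA (4.78 to 24.7). The Bcl11b level had a median of 405 CPM in the DMS (301.8 to 478), 256 in the NAc (207 to 320), 124 in the Amy (77.8 to 181), 106 in the PFC (79.4 to 140) and 11.2 in the VTA (5.02 to 17.2). For both genes the DMS overlapped the NAc and the Amy overlapped the PFC, while the VTA lay below all other regions.

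Dlx5 and Dlx6 are a linked pair of distal-less homeobox genes of GABAergic lineages, downstream of Dlx1 and Dlx2. The Dlx5 level had a median of 21.1 CPM in the NAc (16.7 to 23.3), 15.5 in the DMS (13.5 to 18.3), 12.5 in the Amy (7.86 to 18.2), 2.95 in the PFC (2.13 to 3.81) and 0.292 in the VTA (0 to 1.65). The Dlx6 level had a median of 38.7 CPM in the DMS (36.5 to 45.8), 32.3 in the NAc (26.2 to 35.6), 23.2 in the Amy (14.7 to 35.6), 3.68 in the PFC (2.94 to 4.54) and 0.523 in the VTA (0.201 to 3.77). The neighbours thus differed in order, with Dlx6 but not Dlx5 higher in the DMS than in the NAc in every library. In the VTA, Dlx5 had no count in 2 of 23 libraries.

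The noncoding neighbours of members were read beside them. Dlx6os1 (chr6:6820189-6871592, minus strand) runs across Dlx6 on the opposite strand for 5235 bases, but 0 of 2375 exon bases of Dlx6 and 0 of 2263 of Dlx5 lie in its exons. Its median was 36.2 CPM in the NAc, 28.8 in the DMS, 22.2 in the Amy, 10.6 in the PFC and 0.252 in the VTA. Six3os1 (chr17:85600651-85618398, minus strand) shares 106 of the 5446 exon bases of Six3. Its median was 34.6 CPM in the NAc, 24.0 in the DMS, 17.3 in the Amy, 5.06 in the VTA and 0 in the PFC, the same order as Six3. The median of Dlx1as, opposite Dlx1, lay between 0 in the VTA and 2.11 CPM in the Amy. The library kit kept strand, but the strand setting of the counting is not given in the sources used here, so reads of overlapping pairs may be split between them.

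Pattern likeness was described by Pearson's r over the 20 group means of log2 CPM among 18932 genes, in which groups of 1 region share tissue. The gene most like Six3 was Six3os1 (r = 0.998), followed by Clic6 and Mospd3. Meis2 and Bcl11b had r = 0.996 with each other, and Meis2 was the only other member among the 3 genes most like Bcl11b (Arhgap33, Klf16, Meis2), while those most like Meis2 were Trim46, Arhgap33 and Cpne5. Dlx5 and Dlx6 had r = 0.987, and both were most like D430019H16Rik and Rbm24. Six3 had r = 0.97 with Zfp503 and 0.91 with Isl1, and Ebf1 had 0.83 with Six3 but -0.10 with Meis2. The genes most like the rest were Cldn12, Zzz3 and Gdpd5 for Foxp1, Shisa9, Dnmt3a and Zc3h12c for Foxp2, Spata13, Gm1604a and Mroh7 for Isl1, Gm39244, Pld2 and Fzd2 for Ebf1, and Gtf2ird1, Map3k1 and Sema3f for Zfp503.

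Region tests used vehicle libraries of both sexes within 1 table, with 12 per region and 11 in the VTA. The members were listed as subpallial and striatal factors, so higher levels in the DMS and the NAc follow from the choice of list. The contrasts describe size and order, and the calls of members are no test of that pattern. A gene was called at an adjusted p (edgeR quasi-likelihood test, Benjamini-Hochberg over all genes tested) under 0.05 together with a log2 fold change of 0.4 or more in either direction. Against the PFC, all 10 members were called higher in the DMS and every DMS library was above every PFC library, as for 17.6% of all genes, where 49.1% of all genes were called and 25.7% were called higher. Isl1 and Six3, with 18 and 83 counts in all PFC vehicle libraries, passed the count filter only through the DMS, so their calls carry no weight in this count and the fitted values of 8.02 and 7.49 are not exact. The other 8 members had a median log2 fold change of 2.12, against 0.030 over all genes. Zfp503 differed by 4.05, Ebf1 by 3.45, Dlx6 by 3.40, Dlx5 by 2.40, Bcl11b by 1.85, Meis2 by 1.75, Foxp1 by 1.68 and Foxp2 by 1.497. Without FTL_264 the other 8 stayed called, and the fitted values of Six3 and Isl1 moved to 10.13 and 8.81, on 11 and 9 counts in the remaining 11 PFC vehicle libraries.

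**Figure D2:**
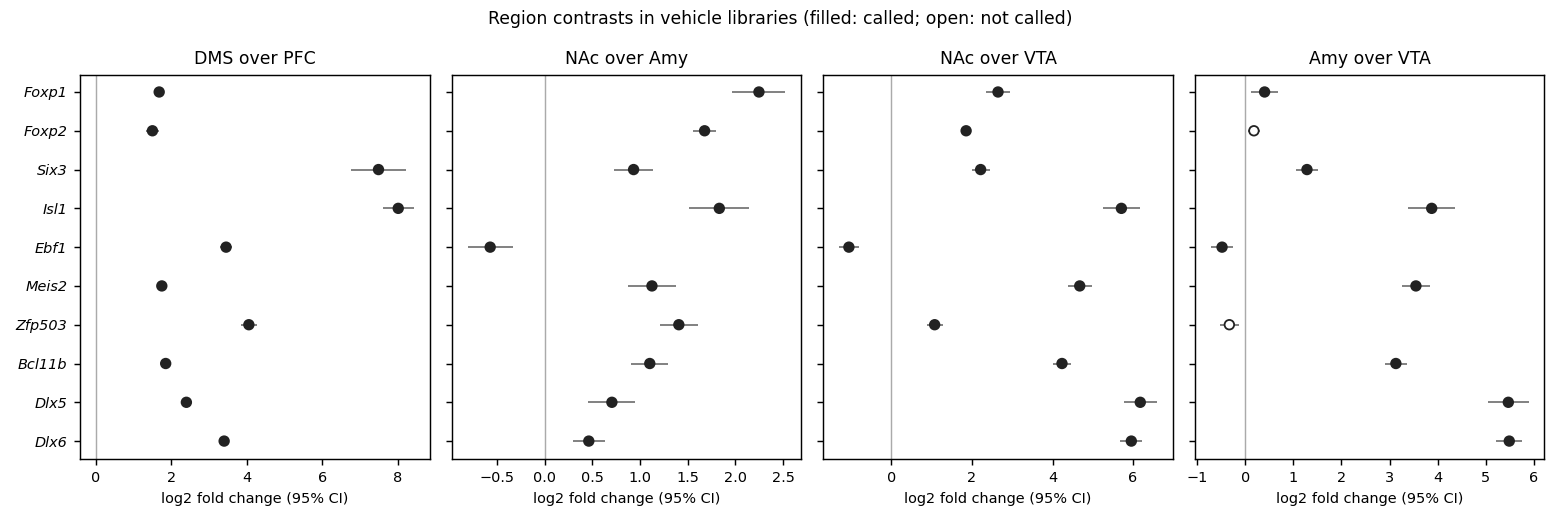
Log2 fold change (x axis) with its 95% confidence interval for each member in the 4 region contrasts of vehicle libraries (n = 12 per region, 11 in the VTA). Filled points were called and open points were not. Isl1 and Six3 in DMS over PFC, and Isl1, Dlx5 and Dlx6 in the VTA contrasts, rest on few counts in the lower region. Ebf1 is the only member below 0 in both NAc contrasts, and Foxp2 and Zfp503 are open in Amy over VTA.

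In the NAc, all 10 members were called against the Amy, 9 of them higher, where 24.1% of all genes were called and 11.6% were called higher. The median log2 fold change of the members was 1.11, against -0.0022 over all genes. Foxp1 was 2.25 higher (160.6 ± 29.0 against 34.4 ± 13.02 CPM, SD, n = 12 each), Isl1 1.83, Foxp2 1.68, Zfp503 1.41, Meis2 1.13, Bcl11b 1.10, Six3 0.93, Dlx5 0.71 and Dlx6 0.46. Ebf1 was lower by the log2 fold change -0.57 (6.93 ± 1.31 against 10.3 ± 2.61 CPM). Against the VTA, all 10 members were again called and 9 were higher in the NAc, where 52% of all genes were called and 24.3% were called higher. Dlx5 and Isl1, with 75 and 139 counts in the 11 VTA vehicle libraries, passed the count filter only through the other regions, so their calls carry no weight in this count and their fitted values of 6.18 and 5.71 are not exact. Dlx6, which passed in the VTA alone with 143 counts, differed by 5.96, Meis2 by 4.68 and Bcl11b by 4.24, ahead of Foxp1 with 2.65, Six3 with 2.22, Foxp2 with 1.86 and Zfp503 with 1.07. Ebf1 had a log2 fold change of -1.06, and each NAc library was below each VTA library, as for 15.9% of all genes.

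Between the Amy and the VTA, 8 members were called, 7 of them higher in the Amy, where 43.3% of all genes were called and 20.4% were called higher. Dlx6 (5.49), Dlx5 (5.47), Isl1 (3.88), Meis2 (3.55), Bcl11b (3.13) and Six3 (1.28) were higher in every Amy vehicle library than in every VTA vehicle library, as for 12% of all genes. The same limit holds here for Dlx5 and Isl1, which passed the filter through the Amy and the NAc, and without this pair 6 of 8 members were called, 5 of them higher. Dlx6 passed in the VTA alone, but its value rests on 143 VTA vehicle counts. Foxp1 was at the fold threshold with 0.40 (adjusted p 0.0118), and without FTL_346, whose Foxp1 level of 71.7 CPM was the highest among Amy vehicle libraries, it was not called (0.28, adjusted p 0.0161). Ebf1 was lower in the Amy with -0.49 (adjusted p 0.000382). Foxp2 (0.18) and Zfp503 (-0.33) had adjusted p-values of 0.00835 and 0.00359 but did not reach the fold threshold.

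Of 24 further transcription factors of the same lineages, 15 of the 22 tested were called between the DMS and the PFC (49.1% of all genes), 11 higher and 4 lower in the DMS. Lhx8 and Nkx2-1, factors of ventral subpallial cholinergic and interneuron lineages, were among those called higher, together with the retinoid receptors Rxrg (4.42) and Rarb (4.19). Lhx8 and Nkx2-1 passed the count filter only through the DMS, and of the 20 factors that passed in each region alone 13 were called, 9 higher. Lhx8 had a median of 10.9 CPM in the DMS and no count in 11 of 12 PFC vehicle libraries, all 6 counts being in FTL_264, so no fold change is given for it. Nkx2-1 had medians of 6.52 CPM in the DMS and 0.0880 in the PFC, with 29 PFC vehicle counts in all. Between the NAc and the Amy, 13 of 24 were called (24.1% of all genes), 10 higher, led by Rarb (3.21) and Zic1 (3.01), with Etv1 lower (-1.77) and Gsx2 higher (1.26). Of the 23 factors that passed the filter in the NAc and in the Amy alone, 12 were called, 9 higher. Between the NAc and the VTA 17 of 24 were called (52% of all genes), 15 higher. Lhx6 (6.17) and Dlx2 were among these, against 141 and 87 VTA vehicle counts in all, so the value of Lhx6 is not exact. Between the Amy and the VTA 18 of 24 were called (43.3% of all genes), 15 higher. Lhx6 (6.14) and Dlx1 (5.18) were among these, against 141 and 241 VTA vehicle counts in all. Of the 18 factors that passed the filter in each region alone, which leaves out Lhx8 and Dlx2, 12 were called between the NAc and the VTA and 13 between the Amy and the VTA, 10 of them higher in each. Lhx8 was at medians of 15.7 CPM in the NAc and 7.04 in the Amy against 6 counts in the 11 VTA vehicle libraries.

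The question the study posed was which genes stay changed after adolescent THC exposure in each region and sex. Of the 100 combinations of 10 members and 10 groups, 92 could be tested, 2 were called and 13 had an unadjusted p under 0.05. The untested ones were Six3 and Isl1 in the PFC and Isl1, Dlx5 and Dlx6 at low counts in the VTA. Over all genes, the share called ran from 0% to 1.57% between the 10 groups. The share of all genes at an unadjusted p under 0.05 ran from 1.84% in the male Amy to 21.9% in the female Amy. Both calls were in the female Amy, where Foxp1 and Bcl11b were higher after THC. The absolute log2 fold change had a median of 0.0924 and reached 0.4 in 6 combinations, and 53 of 92 values were above 0. Mice were not identified, so p-values measure the spread between these libraries.

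**Figure D3:**
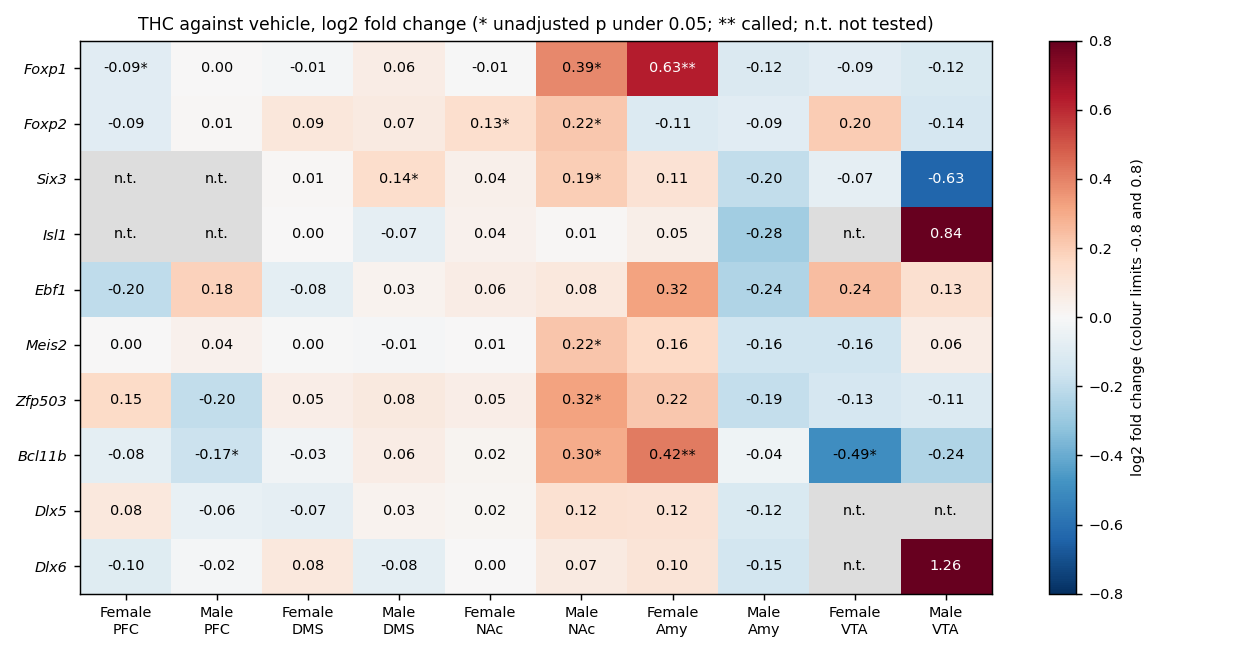
Log2 fold change of THC over vehicle for each member (rows) in each sex and region (columns), with colour and printed value. Double asterisks mark the 2 calls, Foxp1 (0.63) and Bcl11b (0.42) in the female Amy, single asterisks an unadjusted p under 0.05, and grey cells genes not tested.

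In the female Amy, 9 of the 10 members had a log2 fold change above 0 and Foxp2 did not, with a median log2 fold change of 0.14 against -0.0057 over all genes. The 2 called members stand beside 1.57% of all genes called. The Foxp1 level was 20.3, 28.5 and 38.9 CPM (lowest, median and highest) in vehicle libraries and 37.0, 42.8 and 55.8 in THC libraries. Of the 6 THC libraries, 5 were above every vehicle library and FTL_344 was not. Foxp1 was 0.63 higher on the log2 scale (SE 0.145, 95% CI 0.32 to 0.94, edgeR adjusted p 0.0378), from 29.1 ± 6.50 to 45.3 ± 7.72 CPM (SD, n = 6 each). The Bcl11b level was 83.4, 109 and 128 CPM in vehicle libraries and 129, 145 and 169 in THC libraries. All 6 THC libraries were above every vehicle library, as for 2.86% of all genes. Bcl11b was 0.42 higher (SE 0.0992, 95% CI 0.21 to 0.63, edgeR adjusted p 0.0416), from 109 ± 16.6 to 147 ± 15.3 CPM. The other members ran from -0.11 for Foxp2 to 0.32 for Ebf1 and had no unadjusted p under 0.05, a threshold that 21.9% of all genes passed.

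**Figure D4:**
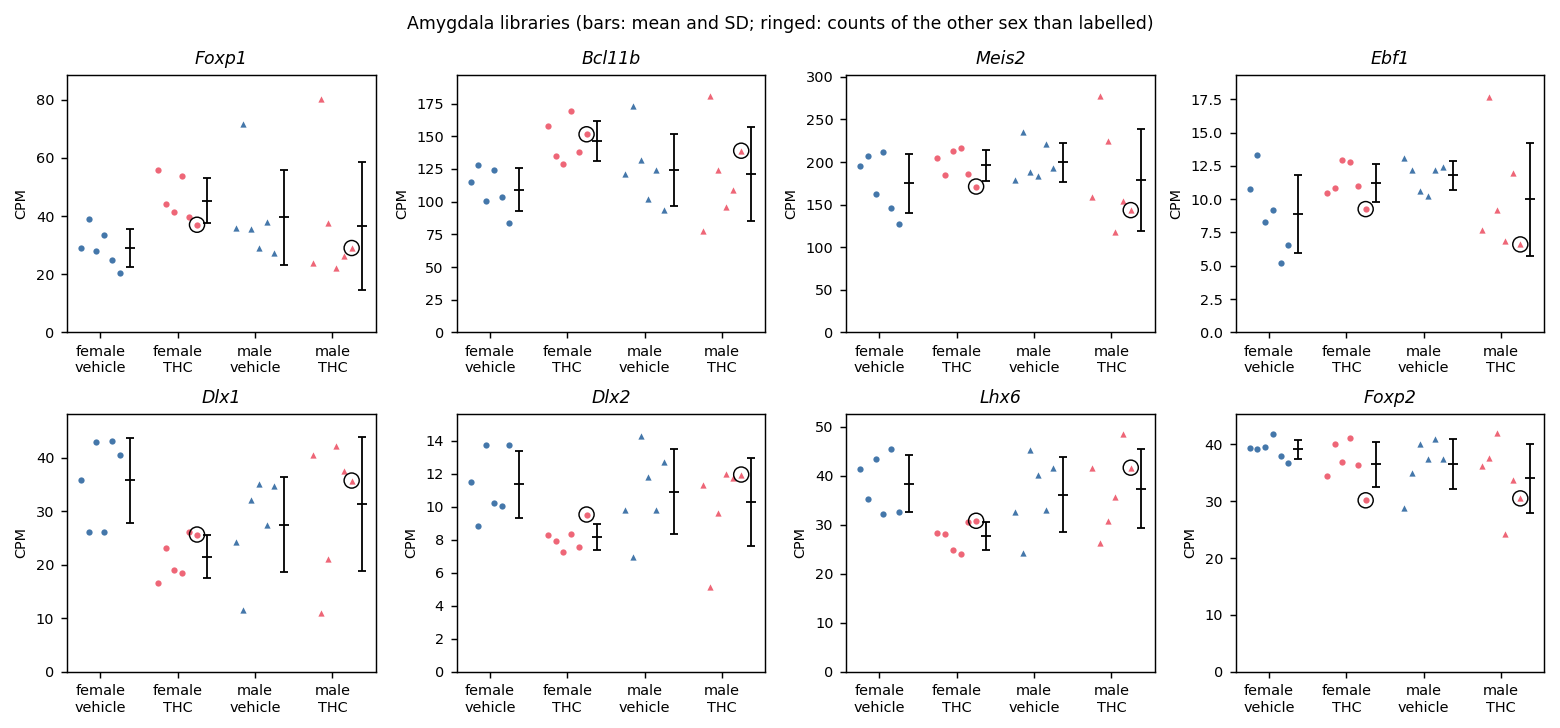
CPM (y axis, from 0) of 5 members and of Dlx1, Dlx2 and Lhx6 in each Amy library by sex and treatment, with the group mean and SD beside the points and rings around the 2 libraries with counts of the other sex. Female THC libraries lie high for Foxp1 and Bcl11b and low for Lhx6, and 1 male THC library (FTL_352) is highest for Foxp1, Bcl11b, Meis2 and Ebf1.

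The 2 calls in the female Amy depended on the libraries and the fit used. DESeq2 called both, with adjusted p 0.00179 for Foxp1 and 0.00359 for Bcl11b, but edgeR on all 4 Amy groups in 1 fit called neither (adjusted p 0.191 and 0.148). Without the sex-mismatched library FTL_344, Foxp1 stayed called (0.68, edgeR adjusted p 0.0482) and Bcl11b did not (0.41, 0.0816). Leaving out other libraries moved the edgeR adjusted p of Foxp1 to 0.0696 without FTL_333, 0.0871 without FTL_335, 0.0669 without FTL_337, 0.0967 without FTL_339, 0.0799 without FTL_340, 0.0538 without FTL_341 and 0.104 without FTL_342. For Bcl11b it was 0.0670 without FTL_333, 0.0963 without FTL_335, 0.0715 without FTL_337, 0.107 without FTL_339, 0.0742 without FTL_340 and 0.117 without FTL_342. Without FTL_338 the log2 fold change of Bcl11b fell under the fold threshold, at 0.35 (adjusted p 0.0252). Both log2 fold changes stayed above 0 in every one of these fits, between 0.54 and 0.72 for Foxp1 and between 0.35 and 0.46 for Bcl11b.

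Markers of other cell types also differed between the female Amy groups. The summed level of 8 cortical and basolateral amygdala projection neuron markers was 526 to 773 CPM in vehicle and 823 to 1160 CPM in THC libraries, without overlap, and 7 of the 8 were higher after THC. Of these, Slc17a7 (0.76), Tbr1 (0.94) and Neurod6 (0.83) were called. The MSN sum was 904 to 1665 CPM in vehicle and 1420 to 2222 in THC libraries, with 12 of 13 markers above 0, 11 of 13 at an unadjusted p under 0.05 and none called. The sum of 10 hypothalamus and medial amygdala markers was 31.4 to 107 CPM against 24.7 to 63.6, with 0 of the 7 tested above 0 and Lhx5 called lower (-1.47). Of these 10 genes, 2 had no count in any vehicle library and 1 in any THC library. The median total count was 26933795 in vehicle and 44472649 in THC libraries. The sum of 5 GABAergic interneuron markers was 328.6 to 566.6 CPM against 300.3 to 367.1. The choroid plexus sum was 17.0 to 1140 CPM in vehicle and 17.5 to 3536 in THC libraries, with medians of 234.8 and 22.4. It was 449 or more in the vehicle libraries FTL_335, FTL_337 and FTL_338 and in the THC libraries FTL_343 and FTL_344, and lower in the other libraries of both groups. Without FTL_344, the THC sums were 1616 to 2222 CPM for MSN markers and 823 to 1160 for cortical markers, and Slc17a7, Tbr1, Neurod6 and Lhx5 stayed called. The part of tissue makeup and depth in the result was not tested.

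Of the 24 further factors, 3 were called in the female Amy, beside 1.57% of all genes, and all were lower after THC, opposite to Foxp1 and Bcl11b. Dlx1, upstream of Dlx5 and Dlx6 in GABAergic lineages, fell by 0.75 on the log2 scale (SE 0.154, edgeR adjusted p 0.0258), from 35.8 ± 7.94 to 21.5 ± 4.05 CPM. Its neighbour Dlx2 fell by 0.49 (adjusted p 0.0406), from 11.3 ± 2.04 to 8.15 ± 0.788 CPM. Lhx6, a LIM homeobox gene of medial ganglionic eminence interneurons and of medial amygdala neurons, fell by 0.48 (adjusted p 0.0258), and 6 of 6 THC libraries were below every vehicle library, as for 1.28% of all genes. Dlx5 and Dlx6 themselves had log2 fold changes of 0.12 and 0.10, with unadjusted p of 0.301 and 0.411. Without FTL_344, Dlx1 (-0.81, edgeR adjusted p 0.0408), Dlx2 (-0.54, 0.0491) and Lhx6 (-0.51, 0.0415) stayed called. In the fit of all 4 Amy groups none of them was called, with edgeR adjusted p of 0.130, 0.115 and 0.0812. With no filter, Dlx1 was not called (-0.74, edgeR adjusted p 0.0548), while Dlx2 (0.0417) and Lhx6 (0.0189) stayed called. Leaving out each of the 12 libraries in turn ended the call in 5 fits for Dlx1 (adjusted p up to 0.0718), 7 for Dlx2 (up to 0.0964) and 5 for Lhx6 (up to 0.0697), and every log2 fold change stayed below 0.

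In the male Amy, all 10 members had a log2 fold change below 0 and none had an unadjusted p under 0.05, with 0% of all genes called. Log2 fold changes ran from -0.28 for Isl1 to -0.04 for Bcl11b. The Foxp1 level was 27.2, 35.8 and 71.7 CPM in male vehicle libraries and 22.2, 27.6 and 80.4 in male THC libraries, and Bcl11b was at 93.9, 123 and 173 against 77.8, 117 and 181. The highest values in each group came from FTL_346 and FTL_352, and the groups overlapped throughout. The sex by treatment interaction was -0.75 for Foxp1 (edgeR p 0.0663, adjusted p 0.342) and -0.45 for Bcl11b (p 0.0552), and no member was called, beside 0.0059% of all genes. The calls in females and their absence in males are thus not shown to differ. DESeq2 called no member in the interaction, and neither did edgeR without FTL_344 and FTL_356 or without FTL_352. Without FTL_356 the male log2 fold changes ran from -0.14 for Ebf1 to -0.02 for Dlx5, with no unadjusted p under 0.05. Without FTL_352 they ran from -0.57 for Isl1 to -0.12 for Foxp2, with Foxp1 at -0.51 and Bcl11b at -0.19. In that fit 5 members (Six3, Ebf1, Meis2, Zfp503 and Dlx6) had an unadjusted edgeR p under 0.05, beside 3.91% of all genes, and no member was called in either fit. The interaction without FTL_352 was larger, at -1.13 for Foxp1 (edgeR p 0.000698, adjusted p 0.115) and -0.59 for Bcl11b (p 0.00600, adjusted p 0.167). Ebf1 (-0.80), Zfp503 (-0.56), Meis2 (-0.47), Six3 (-0.44) and Dlx6 (-0.43) were under the same unadjusted p in that fit, beside 17.3% of all genes, against 0 of 10 members and 15.8% of all genes with every library kept. FTL_352 was picked for its high levels in the THC group, while the high vehicle library FTL_346 was kept. Dropping the high library of the THC side alone lowers that side, so the fits without FTL_352 cannot show that the sexes differ. The MSN sum was 1308 to 2819 CPM in male Amy vehicle libraries and 961 to 1748 in THC libraries other than FTL_352, and the sum of 3 GABAergic markers was 1417 to 1630 against 1085 to 1517. The median total count was 28362508 in male Amy vehicle and 12766415 in THC libraries. The part of these in the result was not tested.

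In the male NAc, all 10 members had a log2 fold change above 0, 6 of them at an unadjusted p under 0.05, and none was called. The share of all genes at that p was 16.7%, and 0% were called. The median log2 fold change of the members was 0.20, against -0.00055 over all genes. The Bcl11b level was 207, 234 and 251 CPM in vehicle libraries and 256, 286.96 and 320 in THC libraries. The Zfp503 level was 30.6, 34.8 and 40.8 CPM in vehicle libraries and 41.7, 44.9 and 47.4 in THC libraries. For these 2 genes all 6 THC libraries were above every vehicle library, as for 0.502% of all genes. Bcl11b was 0.30 higher (SE 0.0636, p 0.000261, edgeR adjusted p 0.21) and Zfp503 0.32 higher (SE 0.0715, p 0.000342, adjusted p 0.21).

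**Figure D5:**
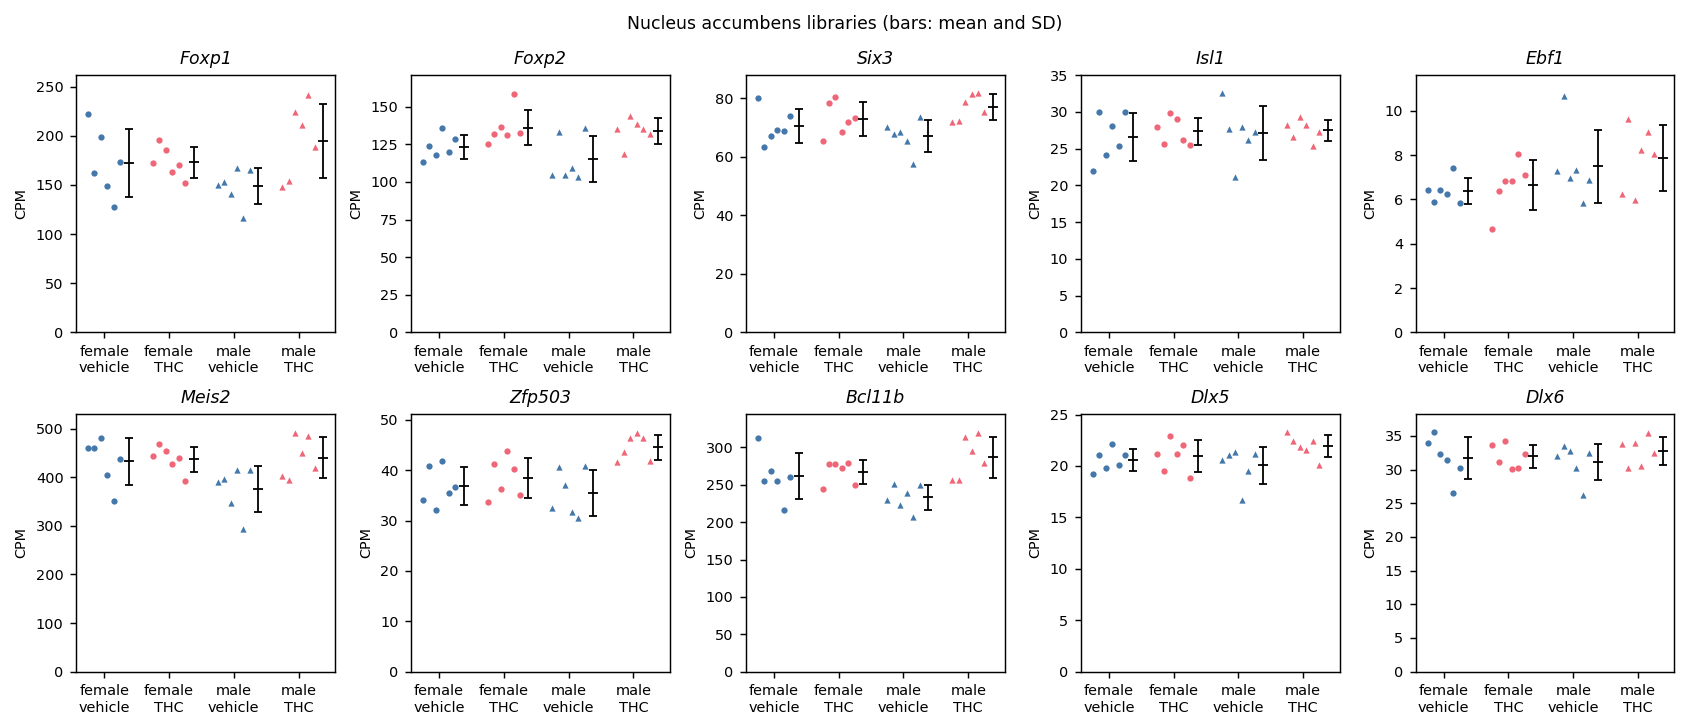
CPM (y axis, from 0) of the 10 members in each NAc library by sex and treatment, with the group mean and SD beside the points. In males, every THC library is above every vehicle library for Zfp503 and Bcl11b, while the female groups overlap for all 10 members.

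The other 4 members at this threshold in the male NAc were Foxp1, Foxp2, Six3 and Meis2. Foxp1 was 0.39 higher (edgeR p 0.0106, 149 ± 18.4 against 195 ± 37.9 CPM, 4 of 6 THC libraries above every vehicle library). Six3 was 0.19 higher (edgeR p 0.00268) and Meis2 0.22 higher (edgeR p 0.0166), each also with 4 of 6 libraries above, and Foxp2 was 0.22 higher (edgeR p 0.00993) with 2 of 6 above. All adjusted p-values of the 6 members lay between 0.21 and 0.22. DESeq2 gave adjusted p 0.0136 for Bcl11b and 0.0442 for Foxp1, and both stayed under the fold threshold. Without FTL_325 the log2 fold changes were 0.33 for Foxp1, 0.29 for Zfp503 and 0.27 for Bcl11b. Ebf1, Isl1, Dlx5 and Dlx6 lay between 0.01 and 0.12.

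MSN markers also had higher means in the male NAc THC libraries. Their sum was 4356 to 6396 CPM in vehicle and 5691 to 8931 in THC libraries, with 13 of 13 markers above 0, 11 at an unadjusted p under 0.05 and none called. The cortical sum was 6.40 to 110 CPM against 4.91 to 14.9, the hypothalamus and medial amygdala sum 10.4 to 30.9 against 1.55 to 10.1, and the oligodendrocyte sum 3502 to 5883 against 3168 to 4965. The median total count was 17991814 in vehicle and 22100638 in THC libraries. The part of these in the result was not tested. Of the 24 further factors 11 had a log2 fold change above 0, 5 had an unadjusted p under 0.05 and none was called.

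In the female NAc, 9 of 10 members had a log2 fold change above 0, but values lay between -0.01 and 0.13 and 0% of all genes were called. Foxp2 was 0.13 higher (edgeR p 0.0274, adjusted p 0.99), beside 4.61% of all genes at an unadjusted p under 0.05. The interaction of sex and treatment in the NAc had an unadjusted edgeR p under 0.05 for Bcl11b (0.28, p 0.00831), Zfp503 (0.27, p 0.0204) and Foxp1 (0.39, p 0.0430), as for 11% of all genes, with no call and 0% of all genes called. Without FTL_325 the interaction of Foxp1 was 0.33 (p 0.0840). Over both sexes, Foxp2 was 0.17 higher in the NAc (edgeR p 0.00114), Zfp503 0.19 (p 0.00435), Bcl11b 0.16 (p 0.00885) and Six3 0.12 (p 0.0119), beside 10.3% of all genes at that threshold, and none was called.

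No member was called between treatments in the other groups, where 4 values of 0.4 or more in either direction were all in the VTA. In the PFC, Foxp1 was lower in THC females (-0.09, edgeR p 0.0358) and Bcl11b lower in THC males (-0.17, p 0.0135) before adjustment. Of all genes, 5.84% in females and 4.07% in males had an unadjusted p under 0.05 there. In the DMS, 0.0127% of all genes were called in females and 0% in males. Six3 was 0.14 higher in THC DMS males (edgeR p 0.0104), beside 1.93% of all genes at an unadjusted p under 0.05. Females had no member under that p in the DMS. In the female VTA, 9.02% of all genes had an unadjusted p under 0.05. Bcl11b was among them, with a log2 fold change of -0.49 (edgeR p 0.0107, adjusted p 0.512), from 13.2 ± 2.02 to 9.35 ± 2.51 CPM, and 5 of 6 THC libraries below every vehicle library. Without FTL_363, the lowest library at 5.02 CPM, the value was -0.36 (edgeR p 0.00921). The astrocyte sum was 1495 to 2233 CPM in vehicle and 767 to 2190 in THC libraries, the microglia sum 199 to 248.7 against 150 to 223, and the dopaminergic sum 3375 to 4921 against 1598 to 4722, with the lowest value of all 3 in FTL_363. The part of these in the result was not tested. In the male VTA no member had an unadjusted p under 0.05, and the outermost values, 1.26 for Dlx6 and -0.63 for Six3, had 95% intervals of -0.46 to 2.98 and -1.49 to 0.22. Without FTL_379, which held 3.77 CPM of Dlx6 against 0.201 to 1.32 in the other VTA libraries, the values were 0.30 and -0.81. DESeq2 called no member in any comparison of THC outside the female Amy.

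Over both sexes no member was called in any region, beside 0% of all genes, nor in the Amy without FTL_344 and FTL_356, and the values under an unadjusted p of 0.05 outside the NAc were Bcl11b in the PFC (-0.12, edgeR p 0.0439) and the VTA (-0.37, p 0.00901), Foxp2 in the DMS (0.08, p 0.0364) and Ebf1 in the VTA (0.19, p 0.0497). Among interactions outside the NAc, Dlx6 in the DMS (-0.16, edgeR p 0.0306) and Isl1 (1.71, p 0.0474) and Dlx5 (2.38, p 0.0437) in the VTA passed the same threshold. The VTA medians of Isl1 and Dlx5 were 0.426 and 0.292 CPM. Without FTL_379, which held the highest male VTA level of both, the interactions were 1.34 (edgeR p 0.111) and 1.502 (p 0.145), and without FTL_358 they were 1.07 (p 0.170) and 2.18 (p 0.0747). None of these was called, and the share of all genes at that threshold ran from 4.78% to 10.2% in these comparisons.

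Males and females were compared with treatment as a covariate, 12 libraries a side and 11 male libraries in the VTA. No member was called, beside 2.64% of all genes called for DMS, 0.24% for PFC, 0.243% for NAc, 0.109% for VTA and 0.012% for Amy libraries. In the Amy, FTL_344 and FTL_356 stand in the arm of their label, and no member was called without them. In the DMS, Foxp1 and Bcl11b were lower in males at an adjusted p under 0.05, as 11.1% of all genes were in either direction, but below the fold threshold. Foxp1 was at 321.6 ± 28.0 CPM in males and 358.5 ± 22.4 in females (log2 fold change -0.14, edgeR adjusted p 0.0279), and Bcl11b at 377.9 ± 31.8 and 428 ± 25.3 (-0.17, adjusted p 0.0114). Without FTL_301 the values were -0.12 (adjusted p 0.0443) and -0.14 (adjusted p 0.0120). The MSN sum was also lower in males, with medians of 13287 CPM in vehicle and 13028 in THC libraries against 15181 and 14432 in females, and its part in the result was not tested. Foxp2 (-0.08) and Six3 (-0.09) in the DMS, Bcl11b in the PFC (-0.20) and Ebf1 in the NAc (0.24) had an unadjusted p under 0.05 only, a threshold that 27.8% of all genes passed for DMS, 16.3% for PFC and 16.6% for NAc libraries. Without FTL_301, Foxp2 and Six3 did not pass it in the DMS (-0.07 each, edgeR p 0.0565 and 0.0679). Among the 24 further factors, Rxrg was called lower in males in the DMS (-0.41, edgeR adjusted p 0.00606), but without FTL_301 it did not reach the fold threshold (-0.37).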

How the data were processed

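Poly(A) RNA of each punch was sequenced as 1 stranded paired-end library. Per the labels and the submitters' processing notes, the authors trimmed reads with cutadapt 2.9, aligned them to mm10 with STAR 2.7.3a and estimated expected counts per gene with RSEM 1.3.1. The deposited expected counts are not normalized. Of the values, 4.75% (PFC and DMS) and 5.00% (NAc, Amy and VTA) were not whole, and all were rounded before testing. The gene annotation and the strand setting are not given in the sources used here. GENCODE M21 placed 53292 of the 55291 symbols, and 0 count columns were left out. Total counts ran from 3091000 to 77042100, and intervals cover the spread between libraries.

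Counts were filtered (filterByExpr), TMM-scaled and tested with edgeR 4.0.16 (robust quasi-likelihood, R 4.3.3), and p-values were adjusted by Benjamini-Hochberg over all genes tested. A call needed an adjusted p under 0.05 with a log2 fold change of 0.4 or more in either direction. THC was compared with vehicle in each region and sex, in a sex by treatment interaction, and over both sexes. Levels are CPM over all 119 libraries, and likeness used log2 CPM with a prior count of 2. All 10 members are named with any value at an unadjusted p under 0.05 or a call, and other values are given by range. Of the 24 further factors, those called for THC or sex and the 4 of largest fold per region contrast are named, except for some results that are not reported here. The members and lists were chosen with earlier results of these data known.

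Alternatives were DESeq2 1.42.0, its size factors, no filter, 1 fit per region, THC libraries in the region contrasts, plain CPM, and leaving out libraries. Leaving out FTL_264, FTL_301, FTL_325, FTL_346, FTL_352, FTL_363 and, in the VTA interaction, FTL_358 and FTL_379, and singling out FTL_379 among the planned male VTA fits, was chosen after seeing the data. Within groups, 295 pairs of libraries were compared and no 2 were alike within counting noise. The scripts were tested on simulated data.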

Additional observations from a re-analysis of the deposited data

Results flagged for a closer look

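In each of 200 sets (10 members in 20 groups), the highest and lowest library were compared with the rest by Dixon's gap ratio. Chance marks about 1 in 20 sets, and 21 of 200 were marked.

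In the amygdala, the male vehicle library FTL_346 had a Foxp1 level of 71.7 CPM (others 27.2 to 37.9) and a Dlx5 level of 16.1 CPM (others 12.1 to 13.3). The male THC library FTL_352 had a Foxp1 level of 80.4 CPM (others 22.2 to 37.6).

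In the PFC, the female vehicle library FTL_264 had a Six3 level of 3.48 CPM (others 0 to 0.0450) and an Isl1 level of 0.435 CPM (others 0 to 0.0922). The male THC library FTL_279 had a Six3 level of 0.416 CPM.

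In the DMS, the female vehicle library FTL_285 was low for Isl1, at 16 CPM (others 19.2 to 20.7), and for Meis2, at 443 CPM (others 515 to 527). Its cortical marker sum was 274.6 CPM, against 27.5 or less in the other DMS libraries, its choroid plexus sum 83.5 CPM, and its MSN sum 12479 CPM, the lowest in its group. Zfp503 reached 27.5 CPM in the female THC library FTL_291, and Dlx6 39.8 CPM in the male THC library FTL_305.

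In the NAc, Foxp2 reached 159 CPM in the female THC library FTL_319. Ebf1 reached 7.42 CPM in the female vehicle library FTL_313 and 10.7 CPM in the male vehicle library FTL_322.

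In the VTA, the male THC library FTL_379 was high for Isl1 (1.23 CPM), Dlx5 (1.65 CPM) and Dlx6 (3.77 CPM). The female vehicle library FTL_358 was high for Isl1 (2.12 CPM) and Dlx6 (0.999 CPM). The shallow male vehicle library FTL_371 was low for Foxp2 (26.6 CPM, others 34.8 to 36.1) and high for Dlx5 (0.895 CPM). Dlx5 had 0 CPM in the female THC library FTL_366.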

How the results depend on the processing

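In the female Amy, 2 members were called. No filter left 1 (Foxp1 at adjusted p 0.0813), 1 fit over the 4 Amy groups left 0, and dropping library FTL_344 left 1. Leaving out each library in turn gave 0 to 2 calls. Over all genes, 207 were called without the filter, 126 in the 4-group fit and 544 by DESeq2, and as few as 56 with 1 library left out. The cause was not tested. In every other comparison the number of called members stayed within 1.5 times under each alternative run, and no log2 fold change of a member at an unadjusted p under 0.05 changed sign. DESeq2 called 9 of 10 members between the DMS and the PFC, since it gave no adjusted p for Six3. Without TMM, the mean PFC level was 96.1 CPM for Foxp1 and 141 for Meis2. No paired analysis was possible because the library numbers differ between groups and mice are not named. Low counts limit the values of Six3 and Isl1 in the PFC and of Isl1, Dlx5 and Dlx6 in the VTA.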

Other observations

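The spread of a member over libraries differed between regions. The coefficient of variation of Foxp1 over all libraries of a region was 39.6% in the Amy, against 18.1% in the NAc, 10.8% in the VTA, 9.15% in the DMS and 6.39% in the PFC. For Bcl11b it was 21.9% in the Amy, 11.3% in the NAc, 25.4% in the VTA, 9.46% in the DMS and 12.8% in the PFC. For Meis2 it was 19.6% in the Amy, 11.2% in the NAc, 36.5% in the VTA, 4.80% in the DMS and 4.39% in the PFC.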
